A study of Homo sapiens with 8 samples.

Results

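The genes described here are the secreted ligands, R-spondins, antagonists, feedback regulators and TCF/LEF factors of the Wnt pathway in human endothelial cells grown from pluripotent stem cells. They were picked by a rule on gene names among the protein-coding genes of the deposited table. The rule uses no values, but it was chosen with earlier results of these data known. It takes the WNT, DKK, SFRP, RSPO, NKD and AXIN families, and TCF7 and its relatives. It also takes LEF1, NOTUM, APCDD1, ZNRF3, SP5, LGR4, LGR5, WIF1 and FRZB. RNF43, which the rule also names, is not analysed here. The rule gave 40 genes out of 30386 listed, of which 16828 are protein-coding. By role there were 14 ligands, 5 R-spondins and LGR receptors, 11 antagonists, 6 targets and feedback regulators and 4 TCF/LEF factors.

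Messenger RNA was sequenced in 8 samples of WTC-TJP1, an established line of human induced pluripotent stem cells. In 4 samples the line had been made into endothelial cells (iEC) and in the other 4 into retinal endothelial cells (iREC), by a differentiation that the series calls matched to the first; all were analysed at passage 1. The samples of each group carry the letters C, D, E and F, and no label says whether they came from separate cultures, so the p-values measure only the spread between these samples. All values come from 1 cell line, both groups bear the same cell type label (endothelial cells derived from the stem cells), and the labels do not name the factors used in either differentiation.

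Wnt ligands are lipid-modified secreted proteins that bind Frizzled receptors and the co-receptors LRP5 and LRP6. In the canonical branch this stops the AXIN-containing complex from destroying beta-catenin, which then binds TCF/LEF factors on DNA and raises target genes, among them the feedback inhibitors AXIN2 and NKD. R-spondins strengthen the signal through LGR receptors by removing ZNRF3 and RNF43 from the cell surface, while DKK and SFRP proteins block the co-receptor or bind the ligand. In the vessels of the retina and brain, beta-catenin signalling through FZD4, driven by Norrin or by Wnt7 ligands, is known for its role in vessel growth and barrier formation.

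Total counts ran from 13739364 to 16971865 per sample, and 3 counts, taken as the floor of detection, stood for 0.178 to 0.215 CPM (counts per library total, scaled with TMM factors). All 10 endothelial markers were detected; their summed level was 6582 to 8665 CPM in iEC and ran from 4359 (iREC F) to 9787 CPM in the iREC samples. Within that sum edgeR called EMCN, TEK and CLDN5 higher and PECAM1, CDH5 and ESAM lower in iREC. Summed fibroblast and mesenchymal markers were at 121 to 363 CPM in iEC and, in the order C, D, E and F, at 241, 634, 307 and 3071 CPM in the iREC samples. Summed epithelial markers were at 421 to 1227 CPM in iEC and at 309, 1123, 429 and 4928 CPM in the same iREC samples, and summed mural markers at 175 to 239 CPM in iEC against 916, 811, 459 and 1846 CPM. Among the iREC samples, F was the highest for all 10 fibroblast, all 10 mural and 7 of the 10 epithelial markers. In iREC F, DCN was at 134 CPM, LUM at 429 CPM and CDH1 at 81.6 CPM. CLDN7 was lowest in iREC F, at 2.88 CPM. Of these markers edgeR called LUM, TAGLN, CNN1, NOTCH3, MYH11 and KRT7 higher and PRRX1, RGS5 and CLDN7 lower in iREC. TAGLN made 732 CPM of the mural sum in iREC C. KRT8 and KRT18 made 3025 and 1538 CPM of the epithelial sum in iREC F. TCF21, KCNJ8 and ESRP1 were at or under 1 CPM in every sample. iREC F therefore stood apart, and values without it are given beside the results it moved most. In bulk RNA, fewer cells of a type and less RNA per cell cannot be told apart.

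The ligands WNT3 and WNT5B, the amplifier RSPO3 and its receptor LGR4, the antagonists DKK2 and FRZB, the feedback regulator NKD2 and the factor TCF7L2 were higher in iREC than in iEC. No gene of the set that passed the filter on low counts was called lower. WNT7B, which did not pass it, was called lower in a fit with no filter, as given below. Of the 40 genes, 23 passed the filter on low counts and 17 did not. A gene is called here at an adjusted p under 0.05 in edgeR's quasi-likelihood test, adjusted over all 15330 genes tested. By that rule 8 of the 23 were called, or 34.8%, against 25.0% of all genes tested. All 8 were higher in iREC, against a background of 13.2% called higher, and 0 were lower, against 11.7%. The groups did not overlap in 9 of the 23 (background 29.1%). The median log2 fold change was 1.10 over the 23 and 0.02 over all genes tested. Genes that pass the filter only through iREC had to differ, so these counts describe the set and support nothing further.

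**Figure D1:**
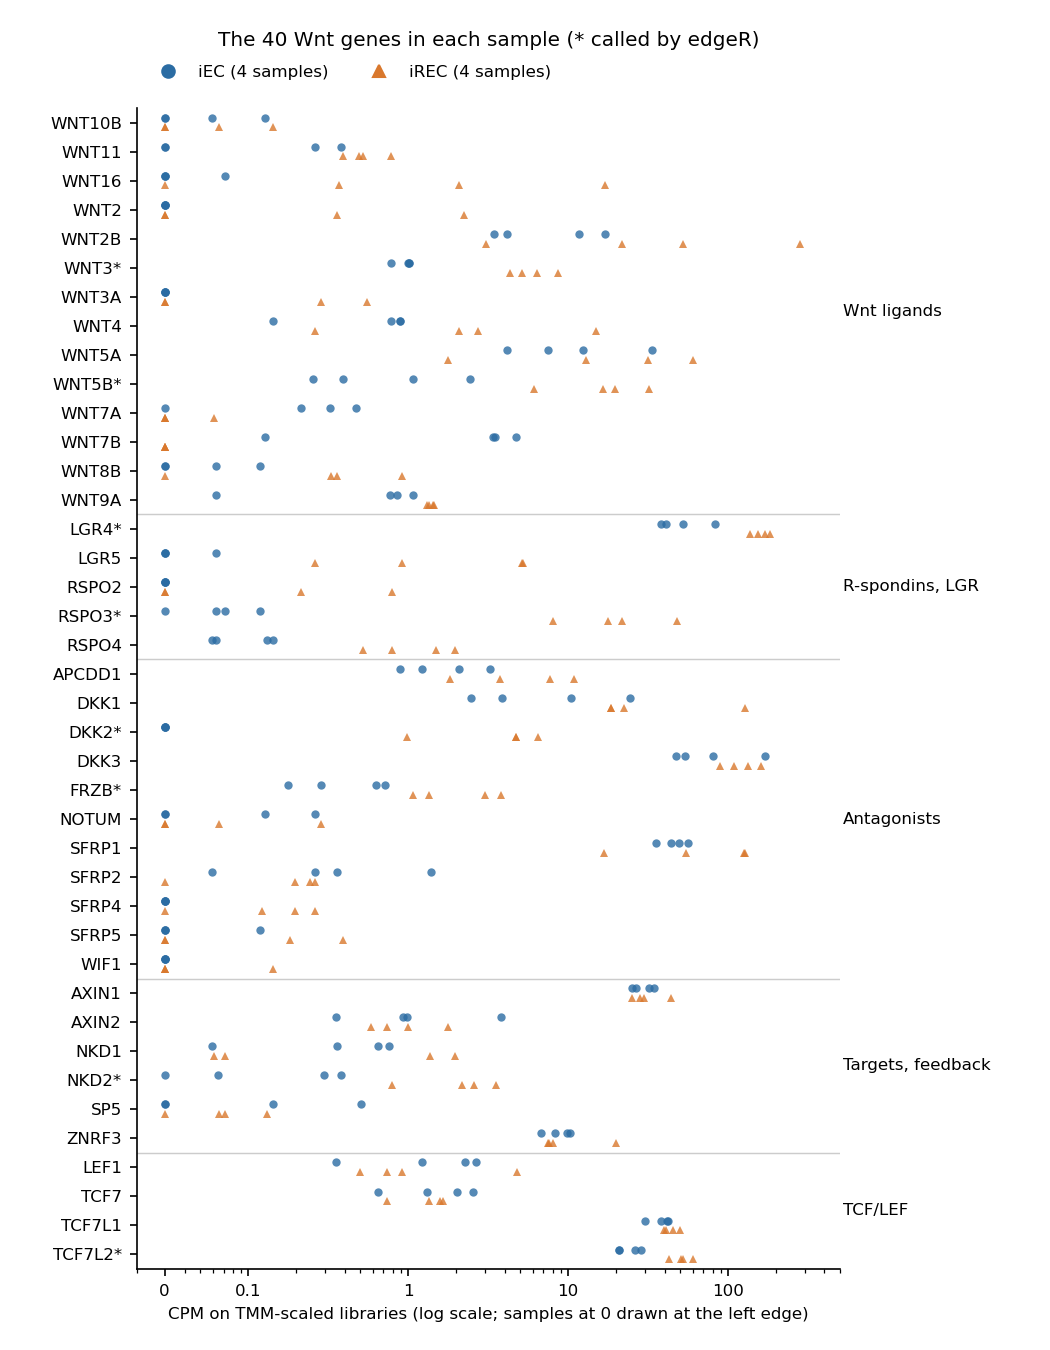
Level of each of the 40 genes in each sample, in CPM on a log axis, with 4 iEC samples as circles and 4 iREC samples as triangles; samples at 0 sit at the left edge. RSPO3 and DKK2 lie near or at 0 in every iEC sample and between 0.98 and 47.8 CPM in iREC, while AXIN1 and TCF7L1 overlap.

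**Figure D2:**
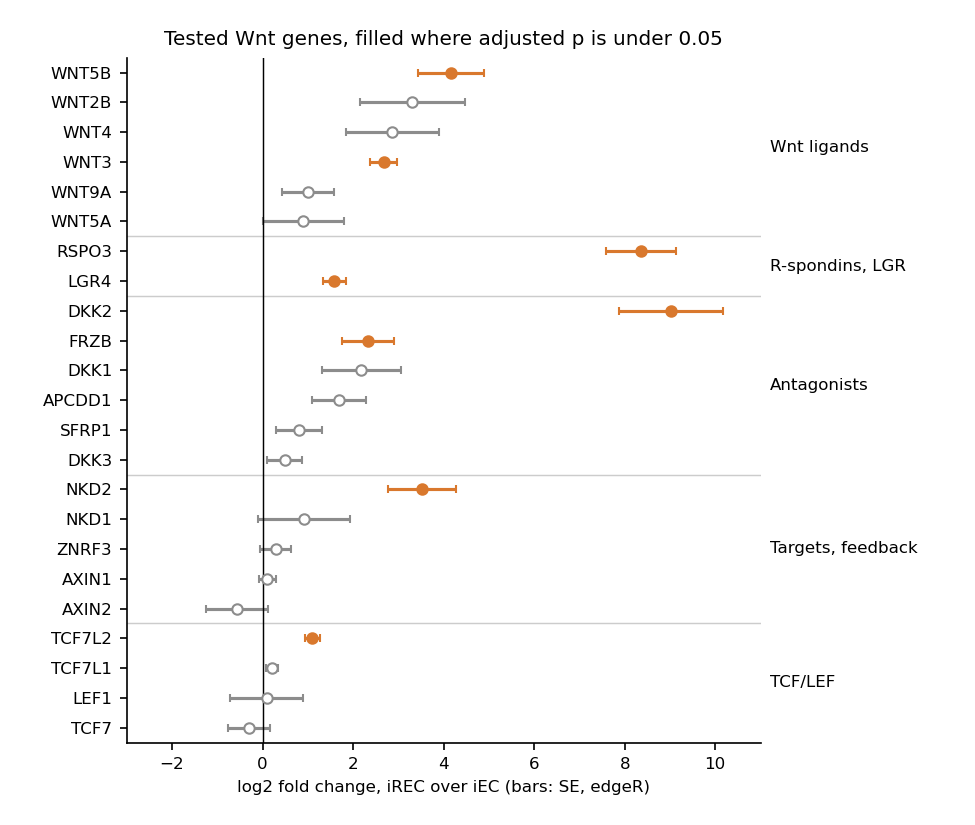
Log2 fold change of iREC over iEC for the 23 tested genes, by role, with a standard error derived from edgeR's F statistic as bars. Filled points have an adjusted p under 0.05. 21 of the 23 points lie above 0; the value of DKK2 is fitted against a group at 0 and depends on the prior count, so it is no bound.

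Promoter sequences were searched for the letters CTTTGAT, those best known for TCF/LEF binding, on either strand. RefSeq windows on GRCh38.p14, from 250 bases before to 50 bases after each start, were matched for 28 of the 40 genes, which have 34 windows. AXIN2, DKK2, DKK3, LGR5, NKD1, NOTUM, RSPO2, SFRP1, WNT7B, WNT10B, WNT11 and ZNRF3 had no window, so the shares do not cover them. The 7 letters stood in 1 of the 34 windows (2.94%) and in 919 of all 35116 windows (2.62%). The shorter core CTTTGA, which lies within the longer motif, stood in 2 of the 34 (5.88%) and in 4536 of 35116 (12.9%). A match of letters is a description and no evidence of binding. The 2 windows that hold the core are shown first, since DKK1 and SP5 are textbook targets of the pathway; RSPO3 and NKD2 follow as called genes whose windows hold neither. Letters in capitals mark the core or the longer motif, read as TCAAAG on the opposite strand, and each sequence is given 5′ to 3′ on the + strand.
DKK1: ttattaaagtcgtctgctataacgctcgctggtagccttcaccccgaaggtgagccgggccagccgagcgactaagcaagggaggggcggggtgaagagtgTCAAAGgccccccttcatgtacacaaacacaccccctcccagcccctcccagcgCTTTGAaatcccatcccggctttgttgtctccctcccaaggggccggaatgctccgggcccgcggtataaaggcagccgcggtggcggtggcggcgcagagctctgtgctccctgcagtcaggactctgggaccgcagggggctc
SP5: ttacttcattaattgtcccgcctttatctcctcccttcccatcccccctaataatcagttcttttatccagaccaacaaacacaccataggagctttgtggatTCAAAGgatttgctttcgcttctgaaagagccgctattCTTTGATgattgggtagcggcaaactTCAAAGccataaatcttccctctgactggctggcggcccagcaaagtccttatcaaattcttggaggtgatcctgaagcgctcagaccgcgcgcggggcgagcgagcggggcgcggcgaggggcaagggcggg
RSPO3: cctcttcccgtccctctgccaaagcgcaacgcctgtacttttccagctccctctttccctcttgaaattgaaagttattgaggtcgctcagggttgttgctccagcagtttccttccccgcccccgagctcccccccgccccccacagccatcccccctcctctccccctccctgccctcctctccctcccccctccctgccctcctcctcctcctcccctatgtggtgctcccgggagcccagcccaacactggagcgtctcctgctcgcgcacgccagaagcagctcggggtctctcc
NKD2: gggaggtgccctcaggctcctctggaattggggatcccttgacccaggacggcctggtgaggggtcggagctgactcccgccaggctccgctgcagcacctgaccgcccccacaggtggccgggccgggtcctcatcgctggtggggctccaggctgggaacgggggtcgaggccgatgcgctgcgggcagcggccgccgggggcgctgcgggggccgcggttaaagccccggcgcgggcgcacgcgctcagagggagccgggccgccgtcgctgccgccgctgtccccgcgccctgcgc
The DKK1 window is chr10:52314031-52314330 and has the core at 149 and 95 bases before the start. The SP5 window is chr2:170715087-170715386, with the core at 147, 109 and 83 bases before the start, and the full motif at the middle site. The RSPO3 window is chr6:127118421-127118720 and the NKD2 window chr5:1008552-1008851.

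Of 14 ligands, 6 were tested and 2 were called (33.3%, against 25.0% of all genes tested), WNT3 and WNT5B. All 6 had a log2 fold change above 0, with a median of 2.77. WNT3 (chr17:46762506-46833154), a ligand of the canonical branch, was at 0.78, 1.01, 1.01 and 1.0 CPM in iEC C, D, E and F and at 8.57, 4.35, 5.13 and 6.35 CPM in the iREC samples of the same letters. The lowest iREC sample thus lay well above the highest iEC sample, and the iEC samples lay close together. On the log2 scale the difference was 2.67 ± 0.30 (SE; edgeR adjusted p = 0.000333).

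WNT5B (chr12:1529891-1647243), a ligand best known for signalling without beta-catenin, was at 0.39, 0.25, 1.07 and 2.43 CPM in iEC and at 6.09, 19.6, 16.6 and 32.2 CPM in iREC. The groups did not overlap, although both spread widely. Its log2 fold change was 4.17 ± 0.73 (edgeR adjusted p = 0.00315), and without iREC F the call held.

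WNT2B, WNT4 and WNT5A were highest in iREC F and did not pass the test. WNT2B (chr1:112466541-112530165), a canonical ligand, was at 4.16, 3.41, 11.6 and 17.04 CPM in iEC and at 3.08, 52.1, 21.6 and 282 CPM in iREC. iREC C lay below every iEC sample and iREC F far above all others. The log2 fold change was 3.31 ± 1.16 (edgeR adjusted p = 0.0655) and 1.5 without iREC F; without iREC C it was 3.71 with an adjusted p of 0.0206. ST7L, on the opposite strand at 12.6 CPM on average, overlaps 21.2% of the exon bases of WNT2B, and the counting may not have used the strand.

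WNT4 (chr1:22117305-22143969), a ligand with roles in mesenchyme and kidney, was at 0.78, 0.88, 0.89 and 0.14 CPM in iEC and at 0.26, 2.71, 2.08 and 14.9 CPM in iREC. Again iREC C was within the iEC range and iREC F stood out. On the log2 scale the difference was 2.86 ± 1.03 (edgeR adjusted p = 0.0709), 1.29 without iREC F, and 3.26 with an adjusted p of 0.0219 without iREC C.

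WNT5A (chr3:55465715-55490539), the close relative of WNT5B, was at 4.16, 12.4, 7.46 and 33.3 CPM in iEC and at 1.77, 31.7, 13.01 and 60.6 CPM in iREC. The groups overlapped, with letter F highest in each. Its log2 fold change was 0.90 ± 0.90 (edgeR adjusted p = 0.504) and 0.11 without iREC F. WNT9A (chr1:227918656-227947898) was at 0.85, 0.06, 0.77 and 1.07 CPM in iEC and at 1.31, 1.43, 1.34 and 1.44 CPM in iREC; the groups did not overlap, yet the gene was not called (log2 fold change 1.0 ± 0.57, edgeR adjusted p = 0.232).

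WNT7B ran the other way. This ligand, which with WNT7A drives barrier formation in brain vessels through ADGRA2 and RECK, had 52, 2, 80 and 49 counts in iEC C, D, E and F and 0 in every iREC sample (chr22:45920362-45977129). Against the floor of 3 counts per library it was at least 14.9-fold lower in iREC. It missed the filter because iEC D was also near 0. With no filter it was called lower (edgeR adjusted p = 0.00203), in a fit that called 12.8% of all listed genes in either direction. WNT7A had 5, 0, 8 and 3 counts in iEC and 0, 0, 1 and 0 in iREC and was not called (edgeR with no filter, adjusted p = 0.128). NDP, which encodes Norrin and is not one of the 40 genes, had 1, 0, 15 and 12 counts in iEC and 0 in all iREC samples (adjusted p = 0.0539 in the same fit).

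WNT16 had 1 count in all iEC samples together, and 0, 29, 6 and 259 counts in iREC C, D, E and F. The pooled ratio of iREC over iEC was 299, with an exact 95% interval of 53.3 to 11868 that covers counting error only, and it rests mainly on iREC F. Without iREC F the pooled ratio was 47.6 (8.0 to 1932). With no filter, edgeR gave an adjusted p of 0.00981, and 0.0229 without iREC F, a fit chosen after seeing the data. The other ligands below the filter (WNT2, WNT3A, WNT8B, WNT10B and WNT11) had at most 34 counts in any sample and were not called without a filter.

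Levels were also compared per length, in RPKM (reads scaled to the deposited gene length and library size). That length is given per gene and not per transcript, so shares between genes depend on it. The ligands summed to 2.40, 2.71, 3.92 and 7.72 in iEC and to 4.58, 16.3, 10.3 and 49.2 in iREC. iREC C lay within the iEC range. WNT5A made 23.5% to 61.8% of the ligand RPKM in the iEC samples, and WNT7B 27.9%, 0.92%, 23.9% and 9.0%. In iREC the mix differed by sample: WNT3 led in C with 43.2%, WNT5B led in D and E with 27.9% and 37.5%, and WNT2B led in F with 45.6%. These shares are a description with no test.

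RSPO3, RSPO4, LGR4 and LGR5 were higher in every iREC sample than in any iEC sample. Of the 5 genes of this role 2 were tested and both were called, against 25.0% of all genes tested. RSPO3 (chr6:127118604-127197765), a secreted amplifier of Wnt signals whose promoter is printed above, had 0, 1, 2 and 1 counts in iEC and 731, 250, 355 and 123 counts in iREC, or 47.8, 17.8, 21.7 and 8.06 CPM. Its iREC order ran against that of the fibroblast list, with C highest and F lowest. The pooled ratio was 372 (exact 95% interval 145 to 1365, counting error only), and edgeR gave an adjusted p of 0.000123. Of the 8 called genes this was the lowest adjusted p.

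LGR4 (chr11:27365961-27472775), a receptor for R-spondins, was at 52.1, 83.1, 37.8 and 40.7 CPM in iEC and at 138, 181, 169 and 154 CPM in iREC. The groups did not overlap and the iREC samples varied little. The log2 fold change was 1.59 ± 0.24 (edgeR adjusted p = 0.00165). Per length it was at 8.43 RPKM on average in iEC and 25.3 RPKM in iREC.

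LGR5, the related receptor known as a stem cell marker and itself a Wnt target, had 0, 1, 0 and 0 counts in iEC and 4, 72, 15 and 80 in iREC (chr12:71439770-71586310). RSPO4 had 2, 1, 1 and 2 counts against 8, 21, 13 and 30 (chr20:958452-1002264). Both were below the filter with no overlap between the groups. The pooled ratios were 174 for LGR5 (exact 95% interval 30.8 to 6919) and 12.2 for RSPO4 (5.35 to 34.4), counting error only. With no filter, edgeR called both higher (adjusted p = 0.00123 and 0.00352). RSPO2 had 0 counts in iEC and 0, 3, 0 and 12 in iREC and was not called.

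Of 11 antagonists, 6 were tested and 2 were called (33.3%, against 25.0% of all genes tested), DKK2 and FRZB. The median log2 fold change was 1.94 over the 6. DKK2 (chr4:106921802-107283806), which binds LRP5 and LRP6, had 0 counts in all iEC samples and 15, 66, 77 and 99 counts in iREC, or 0.98, 4.71, 4.70 and 6.48 CPM. It was at least 21.8-fold higher against the floor of 3 counts per library (edgeR adjusted p = 0.00239). FRZB (chr2:182833275-182867162), a secreted decoy that binds Wnt ligands, was at 0.72, 0.63, 0.18 and 0.29 CPM in iEC and at 3.01, 1.07, 1.34 and 3.80 CPM in iREC. The groups did not overlap, with iREC D closest to iEC. On the log2 scale the difference was 2.33 ± 0.58 (edgeR adjusted p = 0.0171).

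DKK1, a blocker of LRP5 and LRP6 and a target of the pathway, was at 3.84, 2.47, 24.4 and 10.5 CPM in iEC and at 128, 22.3, 18.4 and 18.6 CPM in iREC (chr10:52314296-52318042). iREC C stood far above the other iREC samples, which lay below iEC E. Its log2 fold change was 2.18 ± 0.87 (edgeR adjusted p = 0.0986), and 0.94 without iREC C. It was called in none of the alternatives that gave an adjusted p, each sample left out included; DESeq2 gave it none.

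APCDD1 (chr18:10454628-10489948), a membrane inhibitor of Wnt receptors, was at 3.25, 2.09, 0.89 and 1.22 CPM in iEC and at 3.73, 7.64, 10.9 and 1.83 CPM in iREC. iREC F lay within the iEC range. The log2 fold change was 1.69 ± 0.59 (edgeR adjusted p = 0.0658), and without iREC F it was 1.99 with an adjusted p of 0.0194.

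SFRP1 and DKK3 were the antagonists with the highest CPM in iEC. SFRP1, a secreted Wnt-binding protein, was at 49.6, 35.1, 44.2 and 56.2 CPM in iEC and at 16.7, 128, 54.4 and 125 CPM in iREC, with iREC C below all others. Its log2 fold change was 0.81 ± 0.52 (edgeR adjusted p = 0.288), and 1.14 with an adjusted p of 0.0265 without iREC C. DKK3 (chr11:11963106-12009769), a divergent family member, was at 47.0, 53.7, 80.3 and 169 CPM against 89.0, 134, 108 and 160 CPM. Its log2 fold change was 0.49 ± 0.39 (adjusted p = 0.392), and 1.02 with an adjusted p of 0.0241 without iEC F, the highest sample. SFRP2, SFRP4, SFRP5, WIF1 and NOTUM stayed at or under 22 counts in every sample and were not called by edgeR with no filter.

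Of 6 genes grouped as targets and feedback regulators, 5 were tested and 1 was called (20%, against 25.0% of all genes tested). The median log2 fold change was 0.29. The group holds AXIN1, a constitutive part of the pathway, while the targets DKK1, LGR5 and LEF1 are counted under other roles. Its share and median therefore do not describe the target genes as a whole. The gene called was NKD2 (chr5:1008829-1038943), which binds Dishevelled and restrains the signal. It was at 0.07, 0.38, 0.30 and 0 CPM in iEC and 2.16, 2.57, 3.54 and 0.79 CPM in iREC. The groups did not overlap, and iREC F was the lowest iREC sample. On the log2 scale the difference was 3.52 ± 0.75 (edgeR adjusted p = 0.00868).

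AXIN2, the target gene most often used to read canonical signalling, was low in both groups, at 0.98, 3.79, 0.36 and 0.93 CPM in iEC and 0.59, 1.0, 0.73 and 1.77 CPM in iREC (chr17:65528563-65561647). The ranges overlapped and iEC D was the highest sample. Its log2 fold change was -0.56 ± 0.69 (edgeR adjusted p = 0.589) and 0.44 without iEC D, so its sign rests on that sample. Another annotated gene on the same strand, AC004805.1, shares 25.2% of its exon bases.

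AXIN1 (chr16:287440-352673), the constitutive scaffold of the destruction complex, was at 26.5, 25.1, 34.2 and 32.2 CPM in iEC and at 29.8, 28.0, 25.2 and 44.1 CPM in iREC. The log2 fold change was 0.11 ± 0.20 (edgeR adjusted p = 0.729). ZNRF3 (chr22:28883592-29057487), the ligase that removes Frizzled receptors, was at 8.26, 10.2, 9.77 and 6.80 CPM against 7.59, 7.99, 7.45 and 19.8 CPM. The groups overlapped in both genes, and iREC F was the highest sample in each. For ZNRF3 the log2 fold change was 0.29 ± 0.35 (adjusted p = 0.585); without iREC F the values turned to -0.09 for AXIN1 and -0.19 for ZNRF3. NKD1, the relative of NKD2, was at 0.06 to 0.76 CPM in iEC and 0.06 to 1.97 CPM in iREC and was not called (adjusted p = 0.545). SP5 had at most 8 counts in any sample.

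Among the TCF/LEF factors, all 4 were tested, TCF7L2 was higher in iREC and the other 3 did not pass the test. That is 25% called, against 25.0% of all genes tested. The median log2 fold change was 0.15. TCF7L2 (chr10:112950250-113167678), which carries beta-catenin to target genes, was at 20.7, 26.3, 20.8 and 28.6 CPM in iEC and at 60.5, 42.8, 52.3 and 50.8 CPM in iREC. The groups did not overlap. On the log2 scale the difference was 1.10 ± 0.16 (edgeR adjusted p = 0.00124).

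TCF7L1 (chr2:85133410-85310388), known mainly as a repressor, was at 38.1, 41.4, 30.4 and 42.1 CPM in iEC and at 49.9, 39.9, 45.3 and 40.7 CPM in iREC (log2 fold change 0.21 ± 0.14, edgeR adjusted p = 0.311). LEF1 (chr4:108047545-108168956), an activator and itself a target, was at 2.67, 2.28, 0.36 and 1.22 CPM against 4.78, 0.50, 0.73 and 0.92 CPM. iREC C was high for LEF1 and the other iREC samples lay within the iEC range. The log2 fold change of LEF1 was 0.09 ± 0.80 (adjusted p = 0.948), and -1.17 without iREC C. TCF7 was at 0.64 to 2.53 CPM in iEC and 0.73 to 1.64 CPM in iREC (log2 fold change -0.30 ± 0.46, adjusted p = 0.678).

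Per length, TCF7L1 was the leading factor in all 8 samples, at 8.61 RPKM on average in iEC and 9.95 RPKM in iREC. TCF7L2 followed with 3.58 and 7.66 RPKM. The ratio of TCF7L2 to TCF7L1 RPKM was 0.36, 0.42, 0.45 and 0.45 in iEC C, D, E and F and 0.80, 0.70, 0.76 and 0.82 in iREC. The ratio did not overlap between the groups; it was chosen after its values were seen and is given with no test. LEF1 and TCF7 together added little, with 0.304 and 0.161 RPKM in iEC and 0.323 and 0.132 RPKM in iREC.

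**Figure D3:**
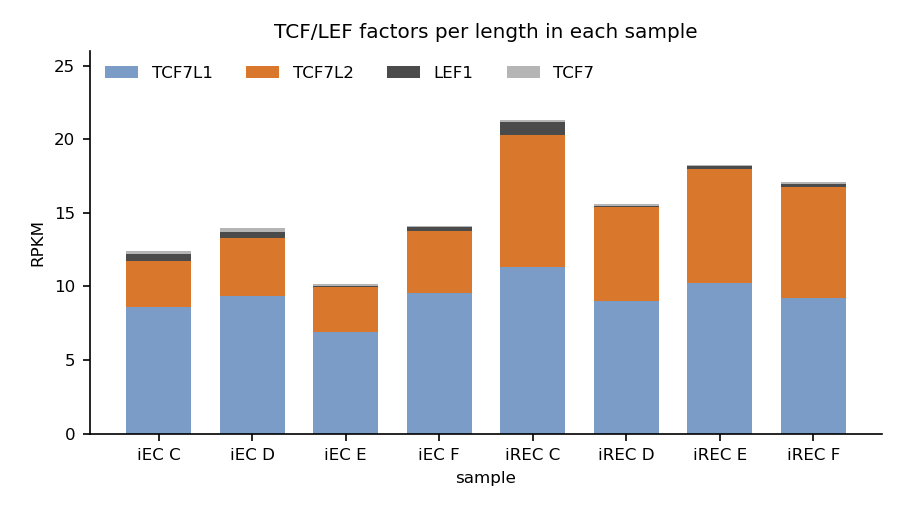
RPKM of the 4 TCF/LEF factors stacked for each sample. TCF7L1 is similar across samples, and the TCF7L2 segment is larger in the 4 iREC samples, where it lies between 6.35 and 8.98 RPKM against 3.07 to 4.25 RPKM in iEC.

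The iREC samples differed among themselves. Of the 25 genes that averaged 1 CPM or more in iREC, 15 were highest in iREC F and 6 in iREC C. Over all 14570 genes of that level, 34.6% were highest in F and 25.0% in C. In 11 of the 25, and in 8.68% of all 14570, the samples ranked C, E, D, F from low to high. The fibroblast, epithelial and pluripotent marker sums had the same order. The 11 genes were WNT16, WNT2B, WNT4, WNT5A, WNT5B, WNT9A, LGR5, RSPO4, DKK2, DKK3 and AXIN2. The other 14 genes, and the endothelial and mural sums, had other orders. WNT3, RSPO3, DKK1, LEF1, TCF7L1 and TCF7L2 were highest in iREC C. The part of other cell types in these values was not tested. All 8 calls held without iREC F, and all 8 held without iREC C.

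**Figure D4:**
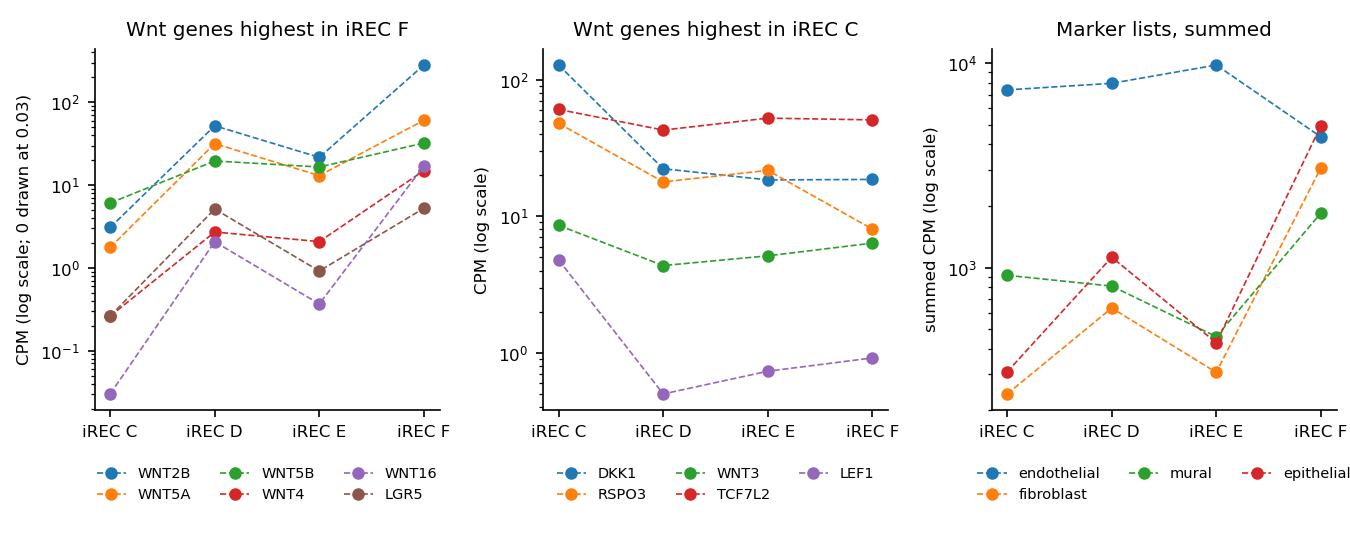
CPM on a log axis in iREC C, D, E and F for 6 genes highest in F, 5 genes highest in C, and the summed endothelial, fibroblast, mural and epithelial markers; dashed lines only join values of the same gene or list. WNT2B spans 3.08 to 282 CPM, while TCF7L2 stays between 42.8 and 60.5 CPM.

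The authors' deposited table gives 15 of the 40 genes an adjusted p under 0.05, against 16.3% of all genes listed there. All 8 genes called by edgeR are among the 15, which also hold WNT2B, WNT4, WNT16, WNT7B, LGR5, RSPO4 and APCDD1. By the authors' deposited table, WNT7B is lower in iREC and the other 14 are higher. DKK1 is listed there with an adjusted p of 1 beside a log2 fold change of 2.17.

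The rest of the pathway was read from lists of 101 other genes, of which 88 were tested, 33 were called higher (37.5%, against 13.2% of all genes tested) and 11 lower (12.5%, against 11.7%). Receptors and co-receptors had calls in 1 direction: of 20 tested, 9 were higher (45%) and 0 lower, with a median log2 fold change of 1.10. FZD4, the Norrin receptor, was at 106 ± 24.8 CPM in iEC and 237 ± 76.9 CPM in iREC (SD, n = 4; log2 fold change 1.17 ± 0.25, edgeR adjusted p = 0.00867). PRSS23, on the opposite strand at 931 CPM, overlaps 19.0% of the FZD4 exon bases. LRP6 rose from 55.0 ± 13.7 to 112 ± 16.3 CPM, and ADGRA2, the Wnt7 co-receptor, from 56.8 ± 35.1 to 292 ± 43.4 CPM (edgeR adjusted p = 0.00436 and 0.00258).

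FZD7, a Frizzled receptor known from stem cells, was at 0.62 ± 0.33 CPM in iEC and 13.3 ± 16.3 CPM in iREC; its level in iREC F was 37.3 CPM (edgeR adjusted p = 0.00909, not called by limma-voom; log2 fold change 4.41, and 3.08 without iREC F). ROR1, a receptor for WNT5A, went from 4.27 ± 2.26 to 33.8 ± 18.7 CPM (edgeR adjusted p = 0.00216). LRP5 was at 2.51 ± 1.69 against 24.5 ± 23.3 CPM and FZD2 at 1.01 ± 0.62 against 7.47 ± 6.29 CPM (edgeR adjusted p = 0.0271 and 0.0282). In both, iREC C lay within the iEC range, and leaving out iREC D, iREC F, iEC C, iEC D or iEC E ended the call, as did limma-voom. On the log2 scale LRP5 was at 3.29 in the full fit and 2.44 without iREC F, and FZD2 at 2.88 and 2.23. TSPAN12, the FZD4 partner in Norrin signalling, was at 11.1 ± 5.14 and 14.0 ± 3.01 CPM and not called (adjusted p = 0.524). Without iREC F, 7 receptors were called. FZD7, ROR1, LRP5 and FZD2 were highest in iREC F, as were the fibroblast and epithelial marker sums given above, whose part in these values was not tested.

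Genes of ligand secretion and extracellular control gave 5 higher (50%, against 13.2% of all genes tested) and 1 lower (10%, against 11.7%) of 10 tested. Their median log2 fold change was 0.85. The glypicans, heparan sulfate proteins that hold ligands at the surface, led: GPC4 went from 0.78 ± 0.23 to 30.4 ± 14.8 CPM and GPC6 from 16.9 ± 13.7 to 233 ± 68.6 CPM (edgeR adjusted p = 7.15e-05 and 0.0011). WLS, the carrier of Wnt proteins to the membrane, was at 60.2 ± 15.8 and 96.0 ± 3.52 CPM (edgeR adjusted p = 0.0257; lost without iEC D, iREC D or iREC E). PORCN, the acyltransferase for Wnt proteins, was at 8.57 ± 1.66 and 6.60 ± 0.26 CPM and not called (adjusted p = 0.206). TRABD2B, a protease that inactivates Wnt proteins, was higher at 1.36 ± 0.46 against 0.17 ± 0.25 CPM, a call lost without iEC D, iEC F, iREC C or iREC D. GPC3 was also higher, with a log2 fold change of 3.53 ± 0.98, a call lost without iEC C, iEC D, iEC F, iREC D or iREC F, and in limma-voom. Without iREC F the log2 fold change of GPC3 was 2.19. CTHRC1, a secreted protein that binds Wnt and Frizzled, was lower at 17.5 ± 0.97 against 29.6 ± 7.78 CPM, a call lost without iEC C, iEC D, iREC D or iREC E. The list fell to 2 calls without iEC D or iREC D.

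The cytoplasmic and nuclear list was even, with 5 higher and 5 lower of 27 tested and a median log2 fold change of 0.03. That is 18.5% each, against 13.2% higher and 11.7% lower over all genes tested. CTNNB1, beta-catenin itself, was at 527 ± 56.5 CPM in iEC and 488 ± 25.8 CPM in iREC (log2 fold change -0.11 ± 0.12, edgeR adjusted p = 0.532). The Groucho-type co-repressors that bind TCF/LEF factors went both ways. TLE1 rose from 28.0 ± 8.23 to 85.5 ± 14.0 CPM, TLE2 from 1.42 ± 1.20 to 10.02 ± 4.42 CPM and TLE4 from 26.9 ± 7.22 to 62.2 ± 5.31 CPM, while TLE3 fell from 42.6 ± 5.44 to 15.8 ± 7.67 CPM (edgeR adjusted p = 0.000991, 0.00811, 0.00167 and 0.00682). DACT1, which binds Dishevelled, was lower at 7.04 ± 3.28 against 30.8 ± 11.3 CPM, as was the kinase gene CSNK1E at 59.3 ± 3.06 against 124 ± 14.3 CPM (edgeR adjusted p = 0.00409 and 0.00027). TCF3, which despite its symbol encodes the helix-loop-helix factor E2A, was also lower, at 108 ± 12.5 against 178 ± 12.5 CPM. It is counted among the 5 lower, so the evenness of the list rests in part on it. DACT3, a relative of DACT1, was higher at 2.39 ± 2.66 against 0.37 ± 0.28 CPM, a call lost without any 1 of the iEC samples, iREC D or iREC F, and in limma-voom. Its log2 fold change was 2.70 ± 0.84, and 1.54 without iREC F.

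The planar polarity and calcium arm had 10 genes higher (76.9%, against 13.2% of all genes tested) and 1 lower (7.69%, against 11.7%) of 13 tested. Its median log2 fold change was 1.70. PRICKLE1 went from 3.34 ± 0.91 to 52.7 ± 17.2 CPM and PRICKLE2 from 1.68 ± 0.86 to 20.3 ± 6.66 CPM; both encode core polarity proteins (edgeR adjusted p = 4.69e-05 and 0.000407). DAAM2, a formin that links Dishevelled to actin, went from 1.07 ± 0.51 to 24.03 ± 25.8 CPM, with iREC F at 61.8 CPM (edgeR adjusted p = 0.00451; log2 fold change 4.48, and 3.41 without iREC F). NFATC2, a calcium-responsive factor, was the gene called lower, at 17.7 ± 6.98 against 0.54 ± 0.41 CPM (adjusted p = 0.000837). CELSR2 was called higher in the full fit (log2 fold change 2.51 ± 0.80, edgeR adjusted p = 0.0479) and, among the 8 fits without 1 sample, in the fit without iREC C. Its call was also lost in limma-voom and in the newer quasi-likelihood fit, and without iREC F its log2 fold change was 1.22. Without iREC F, 9 genes of the list were called; the same marker sums were highest in that sample, and their part was not tested.

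Further targets known from other tissues had 1 gene higher (9.09%, against 13.2% of all genes tested) and 4 lower (36.4%, against 11.7%) of 11 tested. Their median log2 fold change was -0.54. CCND1, cyclin D1, was at 2407 ± 921 CPM in iEC and 253 ± 88.6 CPM in iREC (log2 fold change -3.25 ± 0.35, edgeR adjusted p = 0.000259). CD44, an adhesion receptor, was lower at 51.3 ± 15.3 against 300.2 ± 107 CPM. FOSL1, an AP-1 subunit, was lower at 20.8 ± 7.44 against 87.4 ± 23.8 CPM. TCF4, a helix-loop-helix factor and not TCF7L2, was lower at 85.7 ± 10.7 against 242 ± 56.6 CPM. BAMBI, a pseudoreceptor that dampens TGF-beta signals, was higher at 35.9 ± 11.5 against 4.43 ± 0.71 CPM (edgeR adjusted p = 0.000105). All 5 are targets of other pathways too.

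Genes that answer beta-catenin in brain and retinal endothelium gave 3 higher (33.3%, against 13.2% of all genes tested) and 0 lower (against 11.7%) of 9 tested. Their median log2 fold change was 0.79. The list, which includes PLVAP, was not split by the direction in which each gene answers. The counts and the median therefore measure no response to beta-catenin. The glucose transporter gene SLC2A1 was at 29.4 ± 4.32 and 55.5 ± 23.5 CPM, the efflux pump gene ABCB1 at 0.51 ± 0.17 and 2.04 ± 1.32 CPM, and the claudin gene CLDN5 at 365 ± 45.8 and 634 ± 229 CPM (edgeR adjusted p = 0.0328, 0.0418 and 0.049). CLDN5 in iREC F, at 357 CPM, was within the iEC range. The count of 3 fell to 0 without iEC C, iEC E, iEC F or iREC D, to 1 without iEC D or iREC E, and to 1 in limma-voom.

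**Figure D5:**
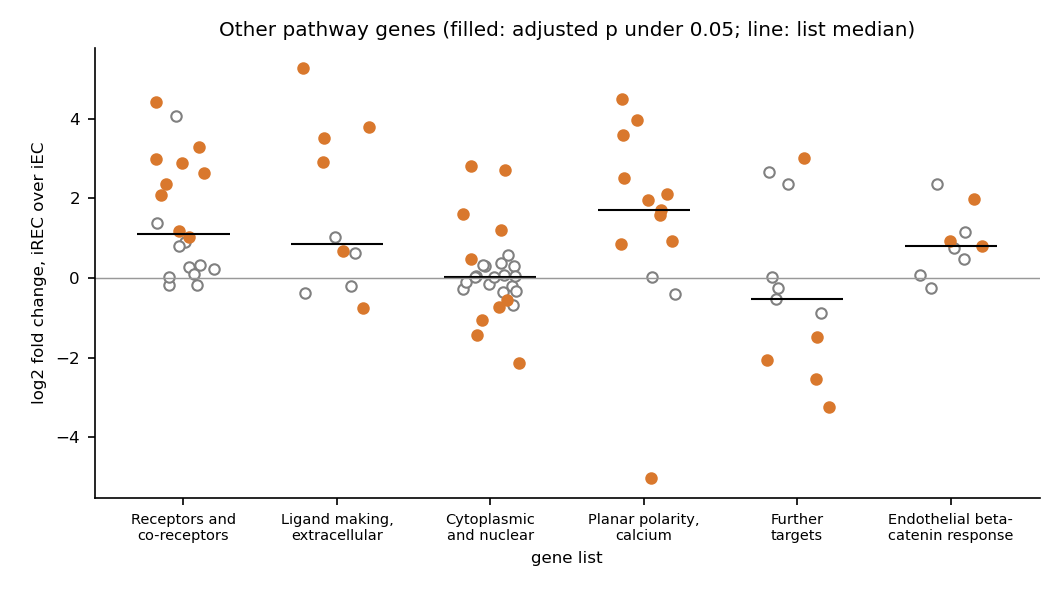
Log2 fold change of iREC over iEC for the tested genes of 6 other pathway lists, filled where the edgeR adjusted p is under 0.05, with the list median as a line. Receptors and the planar polarity list have medians of 1.10 and 1.70, and the further targets lie at -0.54.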

How the data were processed

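Reads were trimmed with fastp and aligned with HISAT2 2.0.5 to hg38, per the submitters' processing notes; the counting program and its strand setting are not given in the sources used here. Per the labels' protocols, libraries were poly-T selected with dUTP in the second strand. The authors deposited 1 table of raw read counts, by gene and by sample, and, from a test the headers do not name, log2 fold changes, p-values and adjusted p-values. Gene identifiers, starts and ends in 30386 of 30386 rows equalled GENCODE 29 on GRCh38.

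Counts were filtered with filterByExpr, scaled by TMM and tested by the quasi-likelihood F-test of edgeR 4.0.16, with group as the only term, all 8 samples and Benjamini-Hochberg adjustment over all tested genes. Standard errors of log2 fold changes are the absolute log2 fold change divided by the square root of the F statistic. RPKM used the deposited gene length. Intervals at 95% are exact binomial and cover counting error only. Alternatives were other scalings, other filters, DESeq2 1.42.0, limma-voom in limma 3.58.1, a newer quasi-likelihood fit, the replicate letter as a block, and each sample left out; the fit with no filter and without iREC F was added after seeing the data.

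The genes and lists were chosen with earlier results of these data known. Genes named with full values were the called ones, AXIN2, LEF1, NKD2 and DKK1, those with at least 5 CPM in a group, and those of at least 1 CPM whose groups did not overlap. Of the other lists, up to 4 called genes per direction by size of change were named, plus CTNNB1, FZD4, LRP5, LRP6, TSPAN12, PORCN and WLS. ADGRA2, NDP, WNT7A and WNT16 were added to these with their values known.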

Additional observations from a re-analysis of the deposited data

Results flagged for a closer look

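Among 41 groups of 4 samples of the 40 genes, 5 held 1 sample whose gap to the nearest other exceeded Dixon's 95% critical share of the range. For independent groups of normally distributed values, chance exceeds it in about 1 of 20 groups, or about 2 of 41. The values here are CPM with no log taken, and the groups share the same 8 samples. The 5 flags therefore measure no excess over chance. iREC F was far above the rest for WNT16 (16.96 CPM against 0 to 2.07), WNT4 (14.9 against 0.26 to 2.71) and ZNRF3 (19.8 against 7.45 to 7.99). iREC C was far above the rest for DKK1 (128 CPM against 18.4 to 22.3) and LEF1 (4.78 against 0.50 to 0.92).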

How the results depend on the processing

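All 8 called genes were called in each of the 9 alternatives on all samples that tested them, and in each of the 8 fits without 1 sample; DKK2, FRZB and NKD2 did not pass the stricter filter. The number of Wnt genes called was 13 with no filter, 5 with the stricter filter (which tests fewer genes) and 15 in DESeq2, and 9 to 14 without 1 sample, the 14 without iREC C. Called higher were 5 with the stricter filter, 14 in DESeq2 and 8 to 13 without 1 sample. Called lower was 0 in the full fit, 1 with no filter, 1 in DESeq2 and 0 to 1 without 1 sample, which was WNT7B. Leaving out 1 sample lowers the number of samples the filter asks for, so genes below it in the full fit can enter the test. LGR5, RSPO4 and WNT7B were such genes. Other added calls were of genes already tested in the full fit. These were WNT2B, WNT4 and SFRP1 without iREC C, DKK3 without iEC F and APCDD1 without iREC F. The cause of these and the other changes was not tested. Log2 fold changes turned sign for LEF1 (-0.14 in limma-voom, -0.14 with the replicate block, -1.17 to 0.42 without 1 sample), AXIN1 (-0.094 to 0.21), AXIN2 (-0.97 to 0.44) and ZNRF3 (-0.19 to 0.43), the last 3 without 1 sample. With the letter as a replicate block 8 Wnt genes and 3334 of all genes were called, against 8 and 3829, and calls fell from 3 to 0 in the endothelial beta-catenin list, from 11 to 8 in the planar polarity list and from 6 to 5 in the ligand-making list, and rose from 9 to 10 among receptors; GPC3 and CELSR2 lost their calls. Deviations of same-letter samples correlated at 0.17, -0.08, 0.01 and 0.23, and not every sample correlated best with its own letter, so the letters were not taken to pair the samples. The largest shift of the median of all genes by a scaling was 0.032, with upper quartile scaling. Genes under about 0.2 CPM in both groups could not be compared at this depth.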
